A study of Arabidopsis thaliana with 24 samples.

Results

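SWEET13, SWEET16 and SWEET17 are 3 sugar transporter genes of Arabidopsis thaliana, and they are described here across 6 groups of rosettes. They were taken as the probe sets that carry those names in the array's annotation, 3 of the 22746 probe sets tested. The 3 genes were chosen by their own log2(intensity + 16) values over the same 6 groups, so those values are given below as a description, with differences and standard errors and without a test. SWEET13 was read by probe set 248467_at (locus AT5G50800 on chromosome 5), SWEET16 by 258421_at (AT3G16690 on chromosome 3) and SWEET17 by 245524_at (AT4G15920 on chromosome 4).

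SWEET proteins are uniporters that let sugars pass a membrane down their concentration gradient, in either direction and without coupling to protons. In leaves, those of the plasma membrane release sucrose from phloem parenchyma cells into the cell wall space. From there, proton symporters load it into the phloem. SWEET proteins of the vacuolar membrane let sugars move between the vacuole and the cytosol. SWEET13 is a plasma membrane sucrose carrier that also carries gibberellins, SWEET16 carries glucose, fructose and sucrose across the vacuolar membrane, and SWEET17 is a fructose carrier of the vacuolar membrane that acts in leaves and roots.

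The 24 Affymetrix arrays, 4 per group, each measured RNA from whole rosettes of plants that were 4 weeks old. All plants grew at 22 °C with 14 h of light. In 2 of the groups, mil4 and Col rosettes were sprayed 2 days before collection with BTH at 300 µM. Benzothiadiazole (BTH) is a man-made stand-in for salicylic acid, a hormone of plant defence. The other 4 groups, mil4 sid2 double mutants, mil4, sid2 and Col, were sprayed with water at the same time, so no sid2 plant received BTH. Col is the wild type accession Col-0, mil4 carries a mutation in MILDEW-INDUCED LESIONS 4, and sid2 carries one in the isochorismate synthase gene ICS1, whose product makes the bulk of the salicylic acid of infected leaves. The labels call the replicates biological, and the alleles and the number of plants per sample were not stated there. MIL4 and ICS1 were not checked, since no probe set carried either as its only gene name in the annotation used here. The study's title places MIL4 in the regulation of the salicylic acid response, and the comparisons below ask where the 3 genes stand after BTH and in plants that lack SID2 function.

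Intensities ran from 0.1 to 47321.3 over all arrays, with array medians of 151.9 to 185.0. Per array, 9.61% to 17.9% of probe sets read less than 16. Pearson's r between arrays was 0.953 to 0.9807 within groups and at most 0.9805 between groups. The arrays were hybridized on 4 days in 8 runs. Days 1 to 3 held the Col and mil4 arrays, and day 4 held all sid2 and mil4 sid2 arrays and no others, so that sid2 against Col, and mil4 sid2 against mil4, cannot be told apart from the day. Of the markers listed for cell types, RCA (Rubisco activase, a mesophyll marker and 1 of 8 listed that carried a name) read 19077.1 to 33216.3 on all arrays. The flower marker A9 read 2.6 to 63.5, the root hair marker EXPA7 4.1 to 57.4 and the root marker PYK10 415.8 to 952.4, and no xylem marker of the 8 listed carried a name. In whole rosettes, fewer cells of a type and less RNA per cell cannot be told apart.

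SWEET13 was brightest in water-treated Col rosettes and dimmest in the mil4 sid2 double mutant. Its intensities, in the order of replicates 1 to 4, were 87.1, 148.1, 96.8 and 129.8 in mil4 with BTH, 159.1, 110.2, 135.7 and 63.1 in Col with BTH, and 3.9, 78.4, 63.4 and 87.4 in mil4 sid2. With water they were 171.6, 224, 211.3 and 196.7 in mil4, 321.2, 144.1, 117.2 and 97.2 in sid2, and 246.4, 331.2, 261.5 and 322.9 in Col. Every Col water array lay above every array of the other groups except sid2 replicate 1. The mean intensity was 58.3 ± 37.6 in mil4 sid2 (SD, n = 4), against 290.5 ± 42.8 in Col with water. One mil4 sid2 array, replicate 1, lay under an intensity of 16, and the other 3 arrays of that group lay between 63.4 and 87.4. On the log2(intensity + 16) scale, water-treated Col stood above water-treated mil4 by 0.49, more than the larger SD of 0.20 and without overlap. Each later step, to sid2, to mil4 with BTH, to Col with BTH and to mil4 sid2, was within the larger SD of its 2 neighbours, with overlapping arrays. The last step was 1.03, beside an SD of 1.11 in mil4 sid2.

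SWEET16 had lower mean levels in both BTH groups than in any of the 4 water groups. It read 83.7, 111.6, 42.6 and 134.9 in mil4 with BTH, and 117.4, 96.7, 93.6 and 103.8 in Col with BTH. In the water groups it read 149.7, 187.6, 118.5 and 214.7 in mil4 sid2, 229.1, 202, 218.1 and 321.5 in mil4, 206.4, 280.8, 194.8 and 128.4 in sid2, and 228.3, 176.5, 223.8 and 188.2 in Col. The BTH arrays reached 134.9 on mil4 replicate 4, above mil4 sid2 replicate 3 (118.5) and sid2 replicate 4 (128.4), so 1 BTH array lay among the water arrays. The mean intensity was 93.2 ± 39.7 in mil4 with BTH, 102.9 ± 10.6 in Col with BTH, 242.7 ± 53.7 in mil4 with water and 204.2 ± 25.7 in Col with water (SD, n = 4 each). Among the water groups, mil4, Col, sid2 and mil4 sid2 followed each other in steps of 0.22, 0.05 and 0.24 on the log2 scale, each within the larger SD of the 2 neighbours. The step from mil4 sid2 down to Col with BTH was 0.60, above the SD of 0.34 and without overlap, and that from Col with BTH to mil4 with BTH was 0.20, within the SD of 0.60.

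SWEET17 was highest in water-treated Col, where all 4 arrays lay above the other 20. It read 921.1, 1383.6, 896.4 and 811.8 in mil4 with BTH, 1485, 1317.3, 1188.4 and 1188.8 in Col with BTH, and 776, 737.1, 841.1 and 1054.1 in mil4 sid2. With water it read 1335.5, 1354, 1420.8 and 1176.3 in mil4, 1049.7, 1164.3, 1107.4 and 865.5 in sid2, and 2068.1, 2070.9, 1563.8 and 1927.8 in Col. The pattern of Col water above all other arrays was shown by 314 probe sets, 1.38% of those tested. The mean intensity was 852 ± 141 in mil4 sid2 and 1908 ± 239 in Col with water (SD, n = 4 each). Below Col with water, mil4 with water stood 0.52 lower on the log2 scale, and Col with BTH a further 0.03, which was within the SD of 0.15. Col with BTH stood 0.31 above sid2, more than the SD of 0.18 and without overlap, while sid2, mil4 with BTH and mil4 sid2 followed in steps of 0.08 and 0.21 that were within the SD of 0.33. The pooled SD within groups was 0.60 for SWEET13, 0.36 for SWEET16 and 0.21 for SWEET17 on the log2 scale, so a difference of a given size was measured most closely for SWEET17. The SEs below rest on 1 spread per gene shared by all 6 groups. For SWEET13 the widest groups were mil4 sid2 (SD 1.11) and sid2 (SD 0.70), which also widen the SEs of comparisons without them.

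**Figure D1:**
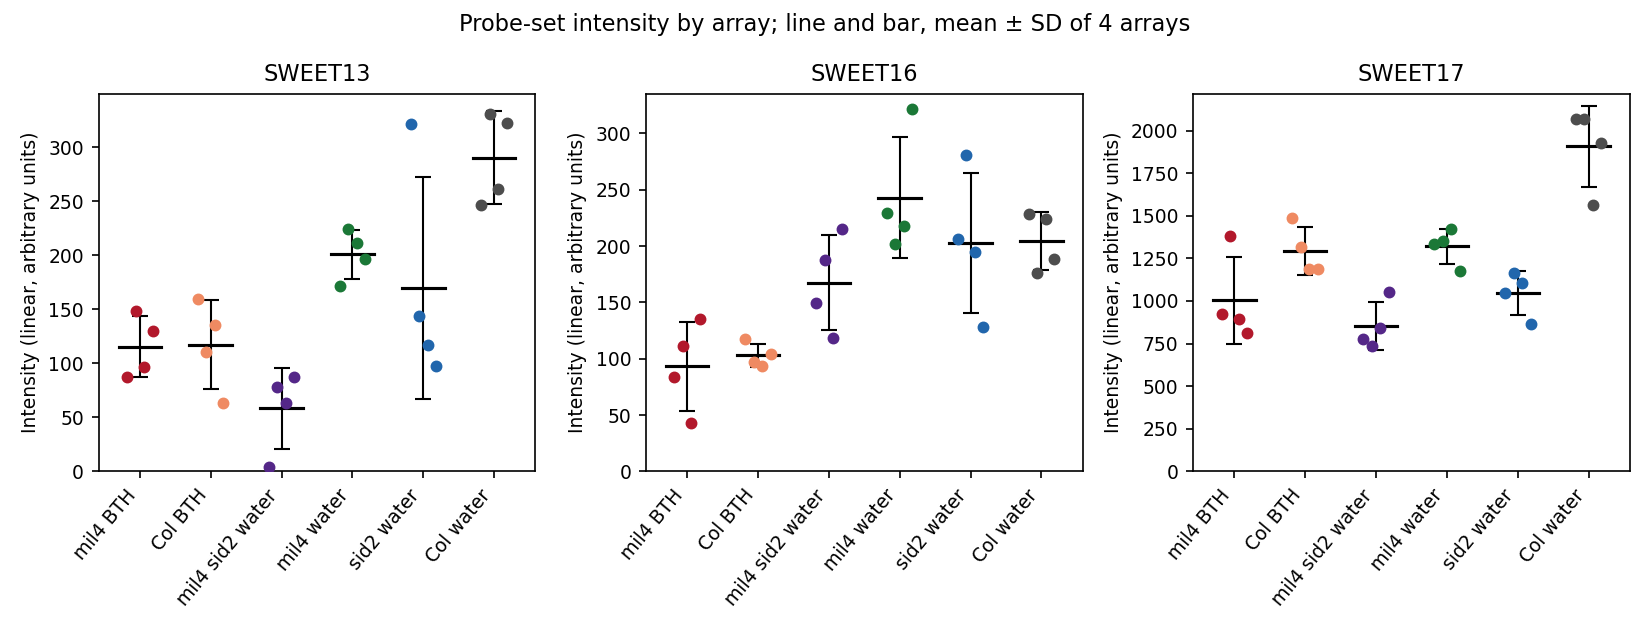
Intensity of the SWEET13, SWEET16 and SWEET17 probe sets (vertical axis, linear and in arbitrary units, from 0) on each of the 24 arrays in 6 groups (horizontal axis). Points are single arrays, and the line and bar give the mean and SD of 4 arrays. The 4 Col water arrays of SWEET17 sit above all others, SWEET16 is lowest in both BTH groups, and 1 mil4 sid2 array of SWEET13 lies near 0.

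The first comparison asked how the 3 genes stood after BTH. All 3 were lower with BTH than with water in both genotypes. In mil4, SWEET16 was 2.48-fold lower with BTH than with water (log2 difference -1.31, SE 0.25), SWEET13 was 1.67-fold lower (-0.74, SE 0.40) and SWEET17 was 1.34-fold lower (-0.42, SE 0.15). The mil4 BTH and water arrays did not overlap for SWEET16 and SWEET13 and overlapped for SWEET17, whose mil4 BTH replicate 2 read 1383.6. Such a lower level without overlap was shown by 8.60% of all probe sets in this comparison. In Col, SWEET13 was 2.38-fold lower with BTH than with water (-1.25, SE 0.40), SWEET16 was 1.85-fold lower (-0.89, SE 0.25) and SWEET17 was 1.46-fold lower (-0.55, SE 0.15). None of the 3 overlapped between Col with BTH and Col with water, beside 8.63% of all probe sets. The median difference over all probe sets was 0.05 in mil4 and 0.01 in Col, so both stood near 0.

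Within the days on which the arrays were hybridized, every BTH difference of the 3 genes had the same sign. BTH and water arrays did not overlap for any of them but SWEET17 in mil4, and without overlap each day must give that sign. The values by day are therefore a description of sizes and not a further check of direction. On days 1, 2 and 3 the difference between BTH and water in mil4 was -2.0, -1.16 and -1.04 for SWEET16, -1.01, -0.54 and -0.71 for SWEET13, and -0.66, -0.53 and -0.25 for SWEET17. In Col it was -0.95, -0.87 and -0.77 for SWEET16, -1.49, -0.58 and -1.46 for SWEET13, and -0.54, -0.47 and -0.65 for SWEET17. Each day gave 1 or 2 arrays per group. The response in mil4 minus that in Col was 0.51 (SE 0.57) for SWEET13, -0.42 (SE 0.35) for SWEET16 and 0.13 (SE 0.22) for SWEET17. The SE of SWEET13 also draws on the wider spread of mil4 sid2 and sid2, which do not enter here. The first of these 3 differences is under its own SE, the second little above it and the third under it. With these SEs the sizes of the 2 responses were not resolved from each other. Single arrays moved these values: that of SWEET13 was 0.28 without Col BTH replicate 4, that of SWEET16 was -0.15 without mil4 BTH replicate 3, and that of SWEET17 ran from -0.03 without mil4 BTH replicate 2 to 0.22 without Col water replicate 3.

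The second comparison asked what the mil4 mutation went with in water-treated plants. Relative to Col, mil4 had 1.43-fold less SWEET17 signal (log2 difference -0.52, SE 0.15) and 1.41-fold less SWEET13 signal (-0.49, SE 0.40), both without overlap, as were 6.52% of all probe sets. The SWEET13 SE is that of the shared spread, while the SDs of the 2 groups compared were 0.15 in mil4 and 0.20 in Col. SWEET16 overlapped between the groups and stood 0.22 higher in mil4 (SE 0.25). Within days 1, 2 and 3 the difference was -0.29, -0.81 and -0.62 for SWEET17, -0.43, -0.30 and -0.71 for SWEET13, and 0.08, 0.47 and 0.26 for SWEET16. Only 1 run held both mil4 and Col water arrays, and with the run as a block the difference was -0.21 for SWEET16, -0.29 for SWEET13 and -0.48 for SWEET17. Without mil4 water replicate 4 the SWEET16 difference was 0.08.

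The third set of comparisons set the sid2 groups beside those with SID2. In sid2, SWEET17 was 1.81-fold lower than in Col (log2 difference -0.86, SE 0.15), without overlap, as were 8.15% of all probe sets. SWEET13 was 1.80-fold lower (-0.85, SE 0.40) with overlapping arrays, and without sid2 replicate 1, which read 321.2, the difference was -1.18. SWEET16 differed by -0.05 (SE 0.25), and leaving out Col water replicate 1 or sid2 replicate 4 turned its sign. GLR3.3, a glutamate receptor-like gene and the 1 named marker of 8 listed for phloem, fell in sid2 against Col (-0.56, limma adjusted p = 0.00353), with intensities of 201.6 to 262.9 in sid2 and 311.7 to 394.5 in Col, and its part in the SWEET differences was not tested.

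In mil4 sid2, SWEET13 was 3.45-fold lower than in mil4 (log2 difference -1.79, SE 0.40) and SWEET17 was 1.55-fold lower (-0.63, SE 0.15), both without overlap, as were 5.58% of all probe sets. SWEET16 was 1.42-fold lower (-0.50, SE 0.25) with overlapping arrays. The size of the SWEET13 difference rested in part on mil4 sid2 replicate 1, since without that array it was -1.23, and it was -1.18 with a pseudocount of 64 in place of 16. Against sid2, the double mutant had 2.70-fold less SWEET13 signal (-1.43, SE 0.40), without overlap, as had 3.77% of all probe sets. That difference was -0.88 without mil4 sid2 replicate 1 and -1.10 without sid2 replicate 1. For SWEET16 and SWEET17 the arrays of mil4 sid2 and sid2, all hybridized on day 4, overlapped, with differences of -0.24 (SE 0.25) and -0.30 (SE 0.15). The effect of mil4 in sid2 minus its effect with SID2 was -0.94 (SE 0.57) for SWEET13, -0.45 (SE 0.35) for SWEET16 and 0.22 (SE 0.22) for SWEET17, and the SWEET13 value was -0.38 without mil4 sid2 replicate 1 and -0.60 without sid2 replicate 1.

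**Figure D2:**
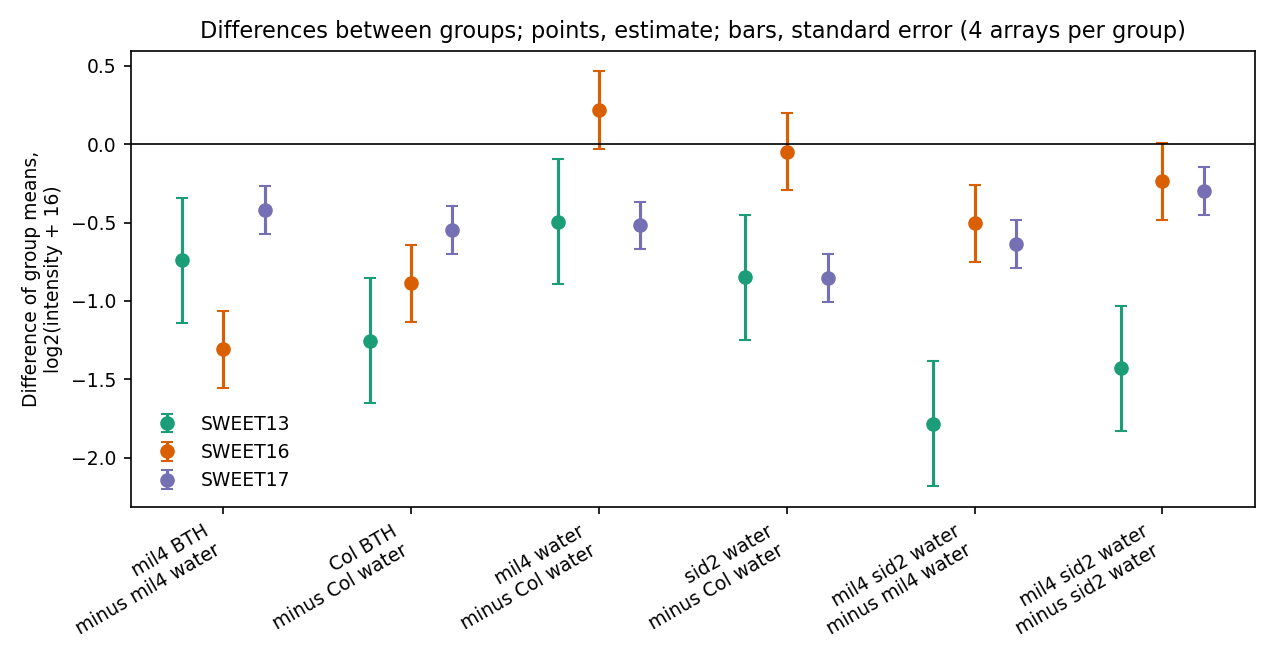
Difference between group means on the log2(intensity + 16) scale (vertical axis) of SWEET13, SWEET16 and SWEET17 in 6 comparisons (horizontal axis), with bars of 1 SE and 4 arrays per group. All 3 genes lie below 0 in both BTH comparisons, SWEET16 lies within 1 SE of 0 for mil4 and for sid2 against Col, and SWEET13 has its lowest value, -1.79, in mil4 sid2 against mil4.

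Across the 6 comparisons, the 3 genes differed in where their difference was largest. The largest of SWEET13 was that of mil4 sid2 against mil4, that of SWEET16 was BTH against water in mil4, and that of SWEET17 was sid2 against Col. For SWEET13 this rests on mil4 sid2 replicate 1: without it the difference between mil4 sid2 and mil4 was -1.23, a little smaller than the -1.25 of BTH in Col. Water-treated Col and mil4 arrays each enter several of these comparisons, so the values of a gene are not independent of each other. After each profile was centred on its own mean over the 24 arrays, the root mean square difference was 0.588 between SWEET16 and SWEET17, 0.649 between SWEET13 and SWEET17 and 0.842 between SWEET13 and SWEET16.

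Deviations of the arrays from their group means, which the choice of the genes did not use, were set against each other for the 3 pairs of genes. For SWEET13 and SWEET17, Pearson's r over 24 arrays was 0.352 (permutation p = 0.139, adjusted 0.407 over the 3 pairs) and Spearman's rho was 0.303 (p = 0.189, adjusted 0.394). For SWEET13 and SWEET16 r was 0.271 (permutation p = 0.272, adjusted 0.407) and rho was 0.264 (p = 0.263, adjusted 0.394). For SWEET16 and SWEET17 r was 0.25 (permutation p = 0.442, adjusted 0.442) and rho was 0.14 (p = 0.575, adjusted 0.575). None passed the threshold. Without the 2 arrays farthest from the median of the first gene, r was 0.406, 0.314 and 0.388 in the same order of pairs. Within day 4, with 8 arrays, r was 0.377, 0.358 and 0.667, within day 1, with 6 arrays, 0.349, -0.022 and -0.0901, and within day 3, with 6 arrays, 0.817, 0.298 and 0.778. Day 2 had 4 arrays, too few for a correlation to be read, and there r of SWEET16 and SWEET17 was -0.979, opposite in sign to days 3 and 4, and that of the other pairs 0.167 (SWEET13 and SWEET17) and 0.0282 (SWEET13 and SWEET16).

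The genes whose profiles lay nearest to each of the 3 were sought among 6840 probe sets with a single gene name and a mean log2 value of at least 7. Nearness was the root mean square difference over 24 arrays of profiles centred on their own means. For SWEET17, whose own deviation about its mean was 0.414, the nearest were AT4G32190 (0.192), AT4G02920 (0.192), AT3G56370 (0.214), AT1G44000 (0.216) and AT2G03750 (0.222). For SWEET16 (own deviation 0.571) they were MSRB6, a methionine sulfoxide reductase gene (0.295), AT4G39970 (0.295), AT4G02850 (0.304), AT2G34620 (0.313) and AT5G37360 (0.314). For SWEET13 (own deviation 0.879) they were AT1G19450 (0.543), AT5G44530 (0.57), AT5G48490 (0.59), GTR1, a glucosinolate transporter gene (0.595), and AT1G20823 (0.595). SWEET17 and SWEET16 thus had closer neighbours, as a share of their own deviation, than SWEET13 had. These distances include the spread within groups, which was widest for SWEET13 (pooled SD 0.60, against 0.36 for SWEET16 and 0.21 for SWEET17). The ranking was not separated from that spread. None of the listed sugar and gibberellin genes described below was among them. The lists do not hold every sugar carrier, and the loci given here without a name were not sorted by function. A sugar carrier outside the lists can therefore be among these neighbours.

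**Figure D3:**
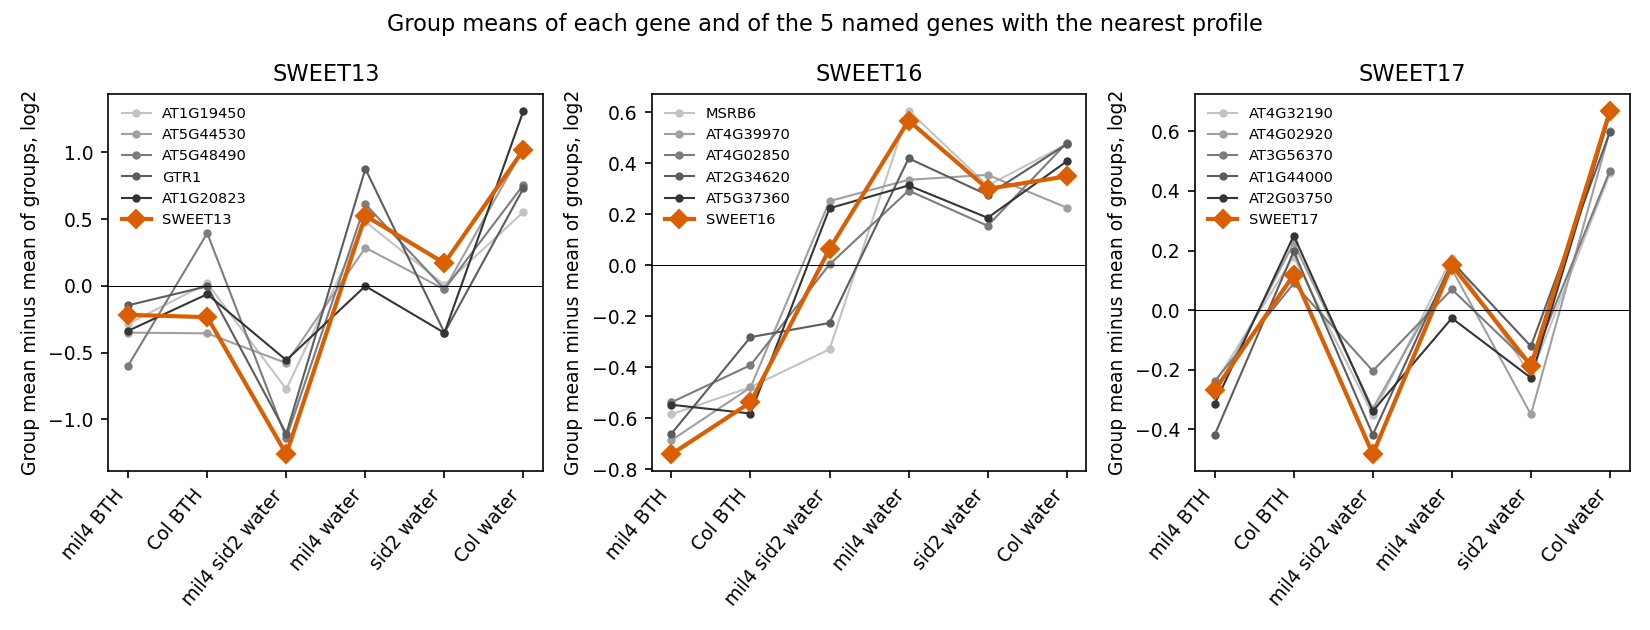
Group means of SWEET13, SWEET16 and SWEET17 (thick lines with diamonds) and of the 5 named genes nearest to each (thin grey lines), as log2 differences from the mean of the 6 groups (vertical axis), by group (horizontal axis). The 5 genes near SWEET17 have their highest mean in water-treated Col and those near SWEET16 have their lowest means in the BTH groups, while the lines around SWEET13 spread more widely.

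The other members of the family did not share 1 pattern with these 3 genes. Of the 14 other SWEET genes of the list, 13 had a named probe set, and these were tested over all 22746 probe sets with limma. Signals were low for most of them. In 9 of the 13 at least 1 array lay under an intensity of 16 (1 to 9 arrays per gene, with no array of these 9 genes above 257.8), and SWEET1, SWEET2, SWEET4 and SWEET11 never did. The changes of the other 9 are therefore measured close to background.

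SWEET11, a plasma membrane sucrose carrier of the leaf phloem parenchyma, was higher in 3 comparisons in which SWEET13 was lower. It read 4590.1, 3777.8, 3564.8 and 4178.5 in mil4 with BTH, 2896.5, 2781.2, 3313.2 and 3374.1 in Col with BTH, and 2770, 3197.3, 4119.8 and 2998.4 in mil4 sid2. With water it read 3418.7, 3702.2, 3475.3 and 3043.6 in mil4, 2456.3, 2778.9, 3146 and 2976.4 in sid2, and 1880.7, 1392.9, 1596.1 and 2163.7 in Col. The Col water arrays were thus the 4 lowest of the 24, a pattern whose share over all probe sets was not counted. SWEET11 rose 1.95-fold in mil4 against Col (log2 difference 0.97, SE 0.14, limma adjusted p = 9.97e-05), 1.77-fold with BTH in Col (0.82, SE 0.14, adjusted p = 0.000374) and 1.62-fold in sid2 against Col (0.70, SE 0.14, adjusted p = 0.00148). With BTH in mil4 it differed by 0.24 and did not pass (adjusted p = 0.295). The difference between the effects of mil4 with and without sid2 was -0.77 (SE 0.20, adjusted p = 0.0229). Within days 1, 2 and 3 its difference between mil4 and Col was 0.90, 0.69 and 1.34, and that between BTH and water in Col was 0.84, 0.62 and 0.99. With the run as a block both the call in mil4 against Col (0.67, adjusted p = 0.084) and that of the interaction (-0.48, adjusted p = 0.35) ended. The interaction also lost its call with equal medians, with the compared groups alone (adjusted p = 0.0583 and 0.058) and without Col water replicate 2, mil4 water replicate 2, mil4 sid2 replicate 1 or sid2 replicate 3 (-0.73 to -0.67, adjusted p = 0.051 to 0.0559).

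SWEET2, a carrier of the vacuolar membrane, was lower in the mutants than in Col, like SWEET17. It read 237.3, 196.4, 272.6 and 251.2 in mil4 with BTH, 434, 287.4, 292.7 and 377.5 in Col with BTH, and 165, 190.9, 190.3 and 142.3 in mil4 sid2. With water it read 239, 273.2, 192.6 and 190.4 in mil4, 275.4, 150.3, 163.5 and 201.5 in sid2, and 510.1, 408.3, 379.2 and 478.1 in Col. All 12 mutant water arrays lay below the 4 Col water arrays. The share of all probe sets with that pattern was not counted. Taken singly, 6.52% were lower without overlap in mil4 against Col and 8.15% in sid2 against Col. SWEET2 fell 2.19-fold in sid2 against Col (log2 difference -1.13, SE 0.18, limma adjusted p = 0.000107) and 1.92-fold in mil4 against Col (-0.94, SE 0.18, adjusted p = 0.00116). With BTH in Col it differed by -0.35 (adjusted p = 0.235), and with BTH in mil4 by 0.10 (adjusted p = 0.786). Within days 1, 2 and 3 the difference between mil4 and Col was -1.08, -1.35 and -0.64, and with the run as a block it was -1.07 and did not pass (adjusted p = 0.0512).

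Among the other family members, 3 changes passed, each at low signal. With SWEET2 and SWEET11 counted in, 2 of the 13 genes passed with BTH in Col, 1 with BTH in mil4 and 3 in sid2 against Col. Of all probe sets, 12.7%, 17.4% and 13.5% passed in the same comparisons. AtVEX1, which is SWEET5 in RefSeq and is known from pollen, fell with BTH in Col (log2 difference -0.94, SE 0.28, limma adjusted p = 0.0304), with 9.5 to 46 in Col with BTH and 40.8 to 64 in Col with water. SWEET7 rose with BTH in mil4 (0.94, SE 0.28, adjusted p = 0.023), with 26.9 to 62.5 in mil4 with BTH and 1 to 26 in mil4 with water. SWEET9, the nectary sucrose carrier, rose in sid2 against Col (0.88, SE 0.27, adjusted p = 0.034), with 45.4 to 59.4 in sid2 and 6.2 to 43.4 in Col. Each of the 3 calls ended without some single arrays: AtVEX1 without Col BTH replicate 2, 3 or 4 or Col water replicate 1, 3 or 4 (-0.97 to -0.77, adjusted p = 0.0549 to 0.117), SWEET7 without mil4 BTH replicate 3 or mil4 water replicate 1 or 3 (0.71 to 0.80, adjusted p = 0.0798 to 0.106), and SWEET9 without sid2 replicate 1, 2 or 3 or Col water replicate 1, 2 or 3 (0.64 to 0.92, adjusted p = 0.0538 to 0.132). With the replicate block in the Col arrays, AtVEX1 did not pass either (adjusted p = 0.0937). Their sizes depended on the pseudocount: with 64 and with 1 in place of 16 the difference was -0.46 and -1.45 for AtVEX1, 0.40 and 2.03 for SWEET7, and 0.43 and 1.41 for SWEET9. The remaining genes, SWEET1, SWEET3, SWEET4, SWEET6, SWEET8, SWEET10, SWEET14 and SAG29 (SWEET15 in RefSeq), passed in none of the 8 comparisons and interactions. SWEET4 came nearest with BTH in Col (-0.65, adjusted p = 0.0749), and passed there without Col water replicate 3 (-0.87, adjusted p = 0.0108) and in sid2 against Col without Col water replicate 4 (0.80, adjusted p = 0.027). SWEET1 passed with BTH in mil4 with equal medians alone (-0.43, adjusted p = 0.0448). SWEET14, which carries gibberellins as SWEET13 does, differed by -0.49 with BTH in Col (adjusted p = 0.534) and by 0.57 with BTH in mil4 (adjusted p = 0.397), with 8 arrays under 16.

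**Figure D4:**
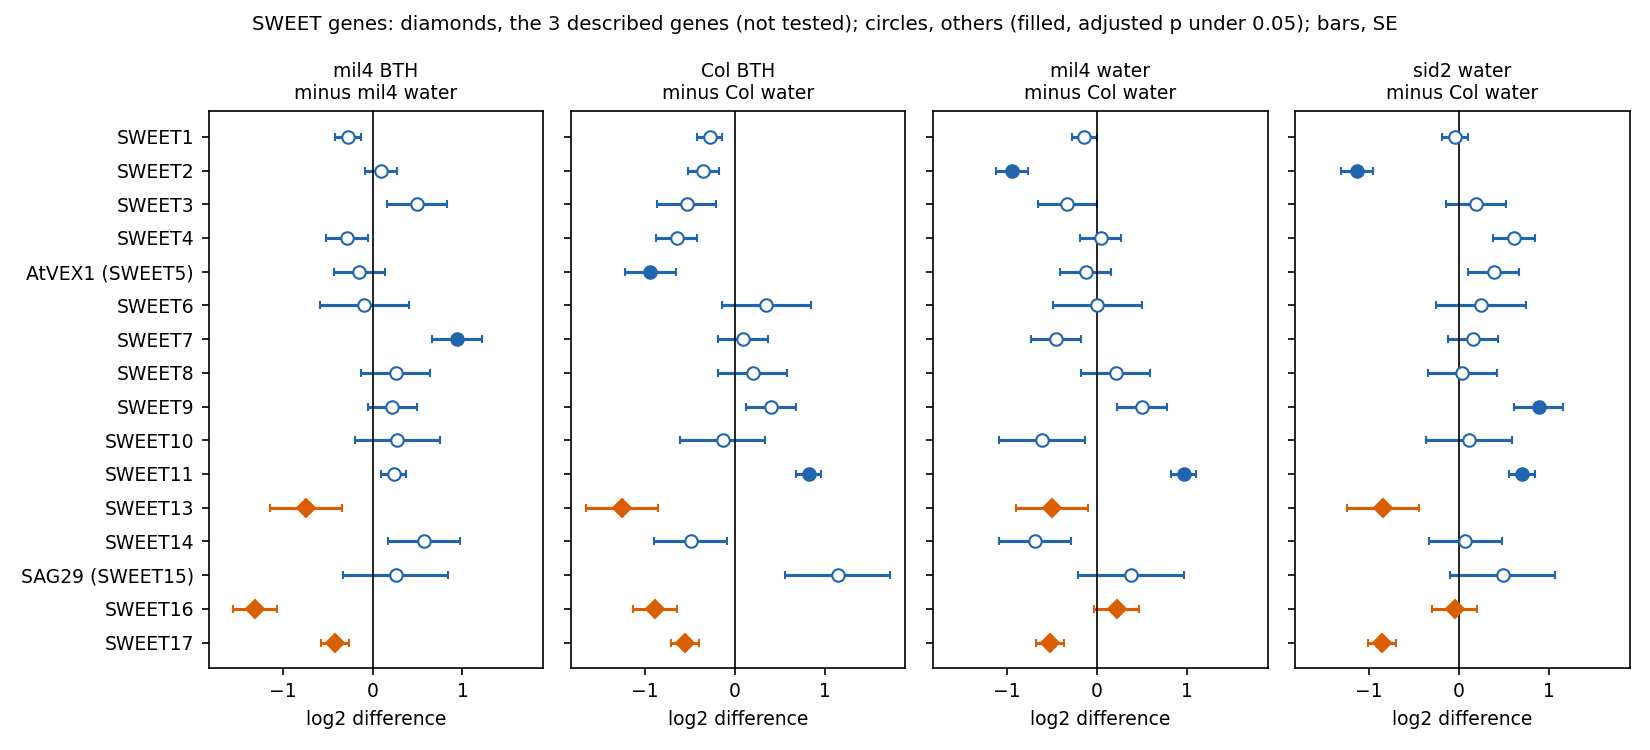
Log2 difference (horizontal axis, with bars of 1 SE) of the SWEET genes (vertical axis) with BTH in mil4 and in Col and in mil4 and sid2 against Col. Diamonds are SWEET13, SWEET16 and SWEET17, which were not tested, and filled circles are other genes with a limma adjusted p under 0.05. SWEET11 lies right of 0 in all 4 panels and is filled in 3, while SWEET2 is filled and left of 0 in the 2 mutant panels.

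Genes of sugar transport, sugar and starch metabolism and gibberellin perception were taken from lists of 135 genes beside the 3, of which 35 had a named probe set. Of the 35, 13 passed with BTH in mil4 (8 higher and 5 lower), beside 17.4% of all probe sets (9.67% higher and 7.77% lower), and 11 passed with BTH in Col (5 higher and 6 lower), beside 12.7% (6.72% higher and 5.97% lower). The genotype by BTH interaction called 1 of 35 (lower), beside 1.01% (0.510% higher and 0.497% lower). In mil4 against Col 5 passed (2 higher and 3 lower), beside 7.40% (3.24% higher and 4.17% lower). In sid2 against Col 8 passed (5 higher and 3 lower), beside 13.5% (6.64% higher and 6.82% lower), and in mil4 sid2 against mil4 8 passed (5 higher and 3 lower), beside 5.57% (2.75% higher and 2.82% lower). None passed with limma in mil4 sid2 against sid2, beside 0.470% of all probe sets (0.198% higher and 0.273% lower). In that comparison 8 of the 35 had an unadjusted p under 0.05, beside 11.2% of all probe sets. The mil4 by sid2 interaction called 4 (2 higher and 2 lower), beside 5.32% (2.86% higher and 2.46% lower). The median log2 difference of the 35 was 0.19 with BTH in mil4, -0.07 with BTH in Col, -0.11 in mil4 against Col and 0.11 in sid2 against Col, beside 0.05, 0.01, a value within 0.01 of 0, and 0.09 over all probe sets. The BTH comparisons held changes in both directions among the listed genes. With the replicate number as a block in the Col arrays alone, where same-numbered arrays pair, 6 passed with BTH in Col, and with the run as a block 0 passed in mil4 against Col.

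Of 18 listed genes for vacuolar, plastid and polyol sugar carriers, 5 had a named probe set. They were TMT1, TMT2, TMT3, SFP1 and SFP2. No listed plastid or polyol carrier had a named probe set, and probe sets without a name or with several names were not searched for them. TMT2, a tonoplast monosaccharide transporter, fell with BTH in mil4 (log2 difference -0.36, SE 0.12, limma adjusted p = 0.0395) and in Col (-0.65, SE 0.12, adjusted p = 0.000647), as SWEET16 and SWEET17 were lower there. It read 402.3 to 485.3 in mil4 with BTH against 487.2 to 673.2 in mil4 with water, and 338.2 to 504.5 in Col with BTH against 640.6 to 693 in Col with water. SFP2, a gene of the ERD6-like sugar carriers, fell 1.84-fold with BTH in mil4 (-0.88, adjusted p = 0.00013) and 1.79-fold in Col (-0.84, adjusted p = 0.00026). SFP1, the gene beside it in RefSeq's order, did not pass in either BTH comparison but was higher with BTH in mil4 by 0.42 and passed there with the run as a block, with the replicate block and among brighter probe sets (adjusted p = 0.0301, 0.0377 and 0.0295). It fell in mil4 sid2 against mil4 (-0.69, adjusted p = 0.0108). TMT1 rose in sid2 against Col (0.53, adjusted p = 0.00814) and in mil4 sid2 against mil4 (0.61, adjusted p = 0.00712), where SWEET17 was lower. With the compared groups alone TMT1 did not pass in sid2 against Col (adjusted p = 0.0793). TMT2 lost its call in Col with the replicate block in the Col arrays (adjusted p = 0.0709), and in mil4 with the replicate block (adjusted p = 0.0529) and without mil4 BTH replicate 1 or 3 or mil4 water replicate 3 or 4 (-0.33 to -0.28, adjusted p = 0.102 to 0.136).

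None of the 7 sucrose-proton symporters listed, which load the sucrose that SWEET carriers release, had a named probe set here. Of the 14 hexose-proton symporters 4 did, and 1 of them, AT5G61520, passed in 5 of the comparisons and interactions. That locus fell in mil4 against Col (log2 difference -0.50, limma adjusted p = 0.0256), rose with BTH in mil4 (0.85, adjusted p = 0.000149), fell in sid2 against Col (-0.49, adjusted p = 0.0171), rose in mil4 sid2 against mil4 (0.59, adjusted p = 0.0122) and had a mil4 by sid2 interaction of 1.08 (adjusted p = 0.00111). Its call in mil4 against Col ended without mil4 water replicate 3 or 4 or Col water replicate 1 or 4 (-0.51 to -0.41), that in sid2 without sid2 replicate 1 or Col water replicate 1 (-0.42 and -0.41), and that in mil4 sid2 without mil4 sid2 replicate 2 (0.51). The call in mil4 against Col also ended with quantile normalization, with equal medians and with the run as a block (adjusted p = 0.0564, 0.0753 and 0.137).

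Among the enzymes of sucrose and starch, of which 5 of 24 and 4 of 24 listed genes had a named probe set, several rose with BTH. AMY1, an alpha-amylase gene, rose 10.9-fold with BTH in mil4 (log2 difference 3.45, SE 0.17, limma adjusted p = 1.28e-10) and 8.76-fold in Col (3.13, SE 0.17, adjusted p = 4.31e-10). The gene cwINV6, named as a cell wall invertase, rose 4.31-fold with BTH in mil4 (2.11, SE 0.18, adjusted p = 2.19e-07) and 3.99-fold in Col (2.00, SE 0.18, adjusted p = 2.21e-07). It read 556.2 to 887.8 in mil4 with BTH against 135.9 to 222.2 in mil4 with water, and 418.3 to 479.2 in Col with BTH against 90.9 to 122.4 in Col with water. APL3, a subunit gene of ADP-glucose pyrophosphorylase, rose 1.90-fold and 2.05-fold in mil4 and Col (adjusted p = 0.00181 and 0.000846), while SBE2.2, a starch branching enzyme gene, fell 1.46-fold and 1.45-fold (adjusted p = 0.00147 and 0.00194). The listed loci AT2G31390 and AT1G62660 went opposite ways, with differences of 0.81 in mil4 and 0.70 in Col for AT2G31390 (adjusted p = 9.45e-05 and 0.000491) and of -0.55 in mil4 and -0.77 in Col for AT1G62660 (adjusted p = 0.0197 and 0.00221). With the replicate block in the Col arrays, APL3 and SBE2.2 did not pass in Col (adjusted p = 0.0779 and 0.111), and AT1G62660 did not pass in mil4 without mil4 BTH replicate 2 or 4 or mil4 water replicate 3 or 4 (-0.52 to -0.44). ATSPS4F, a sucrose-phosphate synthase gene, fell 2.14-fold in mil4 sid2 against mil4 (-1.10, SE 0.18, adjusted p = 0.000852), which cannot be told apart from the day. SWEET13 was 3.45-fold lower in that comparison (-1.79, and -1.23 without mil4 sid2 replicate 1).

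Of the 14 genes listed for sugar starvation and trehalose 6-phosphate, only AKINBETA1, a subunit gene of the SnRK1 energy-sensing kinase, was named. It was higher where SWEET17 was lower among the water-treated single mutants, rising 2.77-fold in sid2 against Col (log2 difference 1.47, SE 0.13, limma adjusted p = 1.51e-07) and 2.03-fold in mil4 against Col (1.02, SE 0.13, adjusted p = 3.23e-05). It fell with BTH in mil4 (-0.51, adjusted p = 0.0111) and did not pass with BTH in Col (0.40, adjusted p = 0.0549), and the interaction of genotype and BTH was -0.90 (SE 0.19, adjusted p = 0.0174). With BTH in Col it passed with a pseudocount of 64, with quantile normalization, among brighter probe sets and without Col BTH replicate 1 or Col water replicate 1 (0.39 to 0.51, adjusted p = 0.0159 to 0.0486), and the interaction did not pass with the compared groups alone (adjusted p = 0.0636). Of the 20 gibberellin genes, the 3 receptor genes GID1A, GID1B and GID1C were named. With BTH in mil4, GID1B rose 2.08-fold (1.05, adjusted p = 0.000841) and GID1C 1.57-fold (0.65, adjusted p = 0.0199), and none of the 3 passed with BTH in Col. GID1C fell in mil4 against Col (-0.76, adjusted p = 0.0136) and rose in mil4 sid2 against mil4 (0.80, adjusted p = 0.014), and GID1A rose there as well (0.48, adjusted p = 0.031). With the run as a block, AKINBETA1 and GID1C did not pass in mil4 against Col (0.79 and -0.99, adjusted p = 0.0647 and 0.104), and with quantile normalization none of the GID1C calls named here held (adjusted p = 0.0941 to 0.211). GID1C with BTH in mil4 also lost its call without mil4 BTH replicate 1 or mil4 water replicate 3 (0.51 and 0.59), and GID1A lost its call without mil4 sid2 replicate 1, 3 or 4 or mil4 water replicate 2 or 4 (0.42 to 0.46).

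Of the measured genes within 2 places of the 3 in RefSeq's gene order, AT3G16670 alone passed in any comparison. SWEET10, the family member next to SWEET13, differed by 0.27 with BTH in mil4 (limma adjusted p = 0.773) and by -0.13 with BTH in Col (adjusted p = 0.916). DI21, a drought-induced gene next to SWEET17, differed by 0.15 with BTH in mil4 (adjusted p = 0.48), 0.10 with BTH in Col (adjusted p = 0.705) and 0.33 in sid2 against Col (adjusted p = 0.0883), where SWEET17 differed by -0.86. AT3G16670, which lies 2 genes from SWEET16, rose in mil4 against Col (0.92, adjusted p = 0.0225) and in sid2 against Col (0.78, adjusted p = 0.0377). In both comparisons SWEET16 stood within 1 SE of 0. AT3G16670 also had a mil4 by sid2 interaction of -1.20 (adjusted p = 0.0475). Of all probe sets, 7.40% passed in mil4 against Col, 13.5% in sid2 against Col and 5.32% in that interaction.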

How the data were processed

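The authors deposited linear intensities of 22810 probe sets on 24 arrays, each with a 2% trimmed mean of 500 to 500.1. Software and background correction are not given in the sources read here. A settings file of each array gives, per the file headers, its hybridization day and run. Trimmed-mean scaling assumes like total signal on all arrays, and dim values carry mostly background. The number of arrays, 4 per group, limits the precision.

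The 64 control probe sets were left out, and log2(intensity + 16) was analysed, which understates changes of dim probe sets. Gene names came from the platform annotation (13513 probe sets with 1 name, 503 with several, 8730 unnamed here), of which 13436 matched RefSeq TAIR10.1, used for names and gene order alone. A gene was counted as named or measured only where a probe set carried its name alone. For a locus with several probe sets the brightest was taken.

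Differences came from limma 3.58.1 in R 4.3.3 (1 mean per group over all 24 arrays, eBayes, 2-sided), with Benjamini-Hochberg adjustment over all 22746 probe sets in each comparison and a threshold of 0.05. p-values measure only the spread between these samples. Correlations, plots and summaries used Python 3.11.15 with numpy 2.4.6, scipy 1.17.1, pandas 2.3.3 and matplotlib 3.10.9, with 100000 permutations within groups. The scripts were tested on simulated data. The 3 genes, the gene lists and the tests were chosen with earlier results of these data known.

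The genes named were the 3, every other SWEET gene, up to 3 passing genes with the largest change per further list and comparison, and the 5 nearest profiles of each, of which the text gives part. Neighbours in gene order were added after their values were seen. Replicate numbers were checked for pairing from deviations from the group means over 9657 probe sets. Col with BTH and Col with water had correlations of 0.17 to 0.34 in all 4 pairs, which also shared a run, and were treated as pairs in an added fit. Elsewhere the lowest pair correlation was under 0.1, although all 4 pairs also shared a run for BTH in mil4 and for mil4 sid2 against sid2. Alternatives were the pseudocount (1 and 64), quantile normalization, equal medians, brighter probe sets alone, day, run and replicate blocks, fits of the groups compared alone, and leaving out each array.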

Additional observations from a re-analysis of the deposited data

Results flagged for a closer look

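In 4 of 96 groups of 4 arrays, of the 3 genes and the 13 other SWEET genes, 1 array stood apart from the rest of its group by Dixon's criterion on the log2 scale, and chance gives this in about 5 percent of groups. SWEET13 read 3.9 on mil4 sid2 replicate 1 and 63.4 to 87.4 on the other 3 arrays of that group. AtVEX1 read 45.1 on mil4 sid2 replicate 3 and 63.0 to 65.6 on the others, and 21.9 on mil4 water replicate 3 and 56.8 to 62.3 on the others. SWEET7 read 8.0 on Col water replicate 2 and 25.2 to 28.7 on the others.

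In 5 cases a listed gene responded differently in 2 backgrounds by a limma interaction term. AKINBETA1 had a genotype by BTH interaction of -0.90 (adjusted p = 0.0174) and a mil4 by sid2 interaction of -1.06 (adjusted p = 0.00123). The mil4 by sid2 interaction was -0.77 for SWEET11 (adjusted p = 0.0229), 1.08 for AT5G61520 (adjusted p = 0.00111) and 1.11 for GID1C (adjusted p = 0.0145). Of these, the mil4 by sid2 interactions of AKINBETA1, SWEET11 and GID1C did not pass with the run as a block (adjusted p = 0.11, 0.35 and 0.0648), nor that of GID1C with quantile normalization (adjusted p = 0.0581), nor that of SWEET11 with equal medians or the compared groups alone (adjusted p = 0.0583 and 0.058). The genotype by BTH interaction of AKINBETA1 did not pass with the compared groups alone (adjusted p = 0.0636). SWEET11 also lost its call without Col water replicate 2, mil4 water replicate 2, mil4 sid2 replicate 1 or sid2 replicate 3 (adjusted p = 0.051 to 0.0559). The mil4 by sid2 interaction of AT5G61520 passed under every alternative run (highest adjusted p = 0.0132).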

How the results depend on the processing

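No called result changed direction under any alternative run. Of 431 values of SWEET13, SWEET16 and SWEET17, 428 moved by less than the gene's pooled SD within groups (0.60, 0.36 and 0.21). That is a loose yardstick, and for SWEET13 it is itself widened by mil4 sid2 replicate 1. The SWEET13 mil4 by sid2 interaction, -0.94 and without that array -0.38, counts as within it. So do the changes of sign of SWEET16 in sid2 against Col. With the run as a block, SWEET16 differed by -0.21 between mil4 and Col, its mil4 by sid2 interaction was -0.029, and the listed genes passing were 0 in mil4 against Col and 1 in the mil4 by sid2 interaction. With a pseudocount of 64, SWEET13 differed by -1.18 between mil4 sid2 and mil4. In mil4 sid2 against sid2, 2 listed genes passed with a pseudocount of 64 (AT5G61520 and SFP2), 3 among the brighter probe sets (those and ATSPS4F), 1 with the day as a block (AT5G61520) and 0 to 1 when single arrays were left out, the 1 being without mil4 sid2 replicate 1. Fitting the groups compared alone, with fewer arrays, gave 0 for the genotype by BTH interaction and 3 for sid2 against Col, and ended 16 named calls in all (adjusted p = 0.058 to 0.167). The run block ended 9, quantile normalization 6 and equal medians 4. When single arrays were left out, SWEET16 in sid2 against Col ran from -0.21 to 0.13. With the replicate number as a block in the Col arrays alone, where the numbers pair, 6 of the 11 listed genes passed with BTH in Col, and DPE1 (adjusted p = 0.135) was lost with AtVEX1, TMT2, APL3 and SBE2.2. The replicate block over all arrays gave 12 there, and lost 1 named call elsewhere, TMT2 with BTH in mil4 (adjusted p = 0.0529). Scaling moved the median of all probe sets by over 0.1 only for BTH in mil4, where it was 0.05 as reported, -0.03 with quantile normalization and -0.07 with equal medians. Of 861 values of 50 named results of listed genes, 771 kept call and direction, 90 lost the call and 0 changed direction. The calls lost most often when single arrays were left out were those of AtVEX1 with BTH in Col and SWEET9 in sid2 (6 of 8 each). Filtering on brightness kept 11373 probe sets, SWEET17 alone of the 3 genes and 19 of the 35 listed.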
